A study of Mus musculus with 6 samples.

Results

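The genes described here are 8 enzymes of cholesterol synthesis, Hmgcs1, Idi1, Fdps, Fdft1, Sqle, Lss, Cyp51 and Dhcr7, and the transcription factor gene Srebf2, taken by their symbols. All 9 were found in the deposited data, among 21950 genes listed for both genotypes, and all 9 passed the filter on low values that left 8888 genes. The tissue was ileum, the distal stretch of small bowel, of C57BL/6 mice at 24 weeks of age, 3 of them wild type and 3 TLR4ΔIEC, in which Toll-like receptor 4 is conditionally deleted in intestinal epithelial cells. The labels name no treatment, and the promoter that drove the deletion and whether the wild type mice carried a floxed allele or a recombinase were not given in the sources used here. Whole-transcriptome libraries were made from RNA depleted of ribosomal RNA, 1 per mouse, but the deposited values are 1 column of average coverage (reads per base of a transcript entry) for each genotype, shared by its 3 mice. Each value below is therefore that of a pool of 3 mice, with no spread between mice and no test. By the study's design text, the barcoded libraries of each genotype were pooled for sequencing, so genotype and sequencing pool cannot be told apart. The deleted gene itself, Tlr4, was weakly covered (1.98 reads per base in the wild type pool, 1.60 in the other), and since cells outside the epithelium keep it, this is a weak check of the labels.

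Cells make cholesterol from acetyl-CoA. The mevalonate pathway leads to farnesyl diphosphate, a pair of farnesyl units is joined to squalene, squalene is closed to lanosterol, and lanosterol is trimmed and reduced to cholesterol. SREBP2, the product of Srebf2, switches on the genes of nearly every step when membrane cholesterol is low, by binding sterol regulatory elements near their start sites, usually beside sites for NF-Y and Sp1. In the intestine, cholesterol also arrives from diet and bile, and epithelial cells both take it up and make it.

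The bases upstream of the start sites are shown because these are where SREBP2 is known to act on this pathway and because the genes share a regulator. Of the 9 genes, 6 had an entry in the RefSeq promoter table (build GRCm38.p6), and those without one were Sqle, Fdft1 and Fdps. Each line gives a stretch of at most 250 bases before the RefSeq start site, ended before the first base that any annotated exon of the gene covers. For Dhcr7 the first of its 3 annotated start sites was taken. Capitals mark matches, on either strand, to TCACNNCA, a relaxed form of the sterol regulatory element core.
Hmgcs1 (chr13:119690101-119690350, plus strand): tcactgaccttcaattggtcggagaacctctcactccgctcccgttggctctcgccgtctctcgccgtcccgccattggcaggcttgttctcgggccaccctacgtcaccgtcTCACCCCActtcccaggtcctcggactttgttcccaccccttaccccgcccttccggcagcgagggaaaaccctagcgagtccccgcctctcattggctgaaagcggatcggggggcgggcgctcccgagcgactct
Srebf2 (chr15:82147019-82147180, plus strand): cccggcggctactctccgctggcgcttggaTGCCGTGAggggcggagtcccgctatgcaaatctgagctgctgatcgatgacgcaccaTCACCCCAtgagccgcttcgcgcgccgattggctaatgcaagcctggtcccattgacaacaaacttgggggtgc
Cyp51 (chr5:4104747-4104947, minus strand): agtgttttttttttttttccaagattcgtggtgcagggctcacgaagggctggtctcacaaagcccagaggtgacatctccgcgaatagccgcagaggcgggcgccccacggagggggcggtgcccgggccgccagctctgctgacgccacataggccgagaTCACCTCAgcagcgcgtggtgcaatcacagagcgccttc
Dhcr7 (chr7:143822917-143823144, plus strand): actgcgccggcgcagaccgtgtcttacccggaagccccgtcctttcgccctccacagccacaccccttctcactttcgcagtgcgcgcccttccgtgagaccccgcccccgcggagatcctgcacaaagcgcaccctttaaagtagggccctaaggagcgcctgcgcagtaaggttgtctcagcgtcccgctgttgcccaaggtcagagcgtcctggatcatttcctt
Lss (chr10:76531355-76531564, plus strand): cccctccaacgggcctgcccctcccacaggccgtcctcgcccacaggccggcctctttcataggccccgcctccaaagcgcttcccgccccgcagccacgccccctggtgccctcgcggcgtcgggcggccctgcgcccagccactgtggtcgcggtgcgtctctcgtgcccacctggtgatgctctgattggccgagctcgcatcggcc
Idi1 (chr13:8885356-8885500, plus strand): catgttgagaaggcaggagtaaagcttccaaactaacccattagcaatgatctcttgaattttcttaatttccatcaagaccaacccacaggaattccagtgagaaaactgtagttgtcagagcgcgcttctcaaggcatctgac

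The stricter core TCACNCCA, which lies within the relaxed form, was matched upstream of Hmgcs1, with its first base 137 bases before the start site, and upstream of Srebf2, 162 bases before it. Srebf2 had a further relaxed match on the minus strand at 220 bases, and Cyp51 had a relaxed match at 88 bases. The first start site of Dhcr7 and those of Lss and Idi1 had no match in 250 bases, while the other two start sites of Dhcr7 each had a relaxed one. Among 32817 upstream windows of 250 bases in the table, 3.67% held the stricter and 11.4% the relaxed core on either strand. Within 250 bases, the NF-Y box CCAAT was found upstream of 5 of the 6 genes, all but Dhcr7 at its first start site, against 33.8% of all windows. The Sp1 box GGGCGG was found upstream of all 6, against 32.7%. The NF-Y matches of Idi1 (45 and 14 bases before the start site) and Cyp51 (29 bases) lie past the printed stretch. So does the only Sp1 match of Idi1, at 69 bases. The printed stretches of these genes stop where an annotated exon begins. Such matches are letters in a window and were not tested for binding.

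Between the pools the 9 genes lay close together: after scaling, their log2 ratios of TLR4ΔIEC over wild type ran from -0.19 (Idi1) to 0.30 (Dhcr7), with a median of 0.05 against 0.03 over all 8888 genes (0.15 against 0.12 with scaling to a total that leaves out the 50 highest genes). Values are given in units, which are average coverage after the columns were put on one scale with a mean total of 1000000, and ratios are of units plus 1. Of the 9 genes, 6 had a ratio above 0, as had 52.7% of all genes. None of the 9 (0 of 9) was 1.5-fold higher or lower, compared with 6.57% of all genes that were at least 1.5-fold higher and 10.2% that were at least 1.5-fold lower. At 2-fold the shares of all genes were 1.29% and 2.79%, and the count among the 9 was again 0. With so few genes, these counts are near the background and set the 9 apart in neither direction. Added up, the 9 genes held 387 units in the wild type pool against 414 in the TLR4ΔIEC pool, a log2 ratio of 0.10.

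The spread across genes of similar level gives a scale for these ratios, although it is no replicate error and holds real differences too. Among genes within 2-fold of a member's level, the standard deviation of the log2 ratio was 0.45 to 0.52. The share of such genes at least as far from 0 was 42.8% for Dhcr7, 55.3% for Hmgcs1, 58.0% for Fdps and 99.3% for Fdft1. All 9 ratios thus lay within 1 standard deviation of genes of similar level. The direction of a single member cannot be established from these pools.

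**Figure D1:**
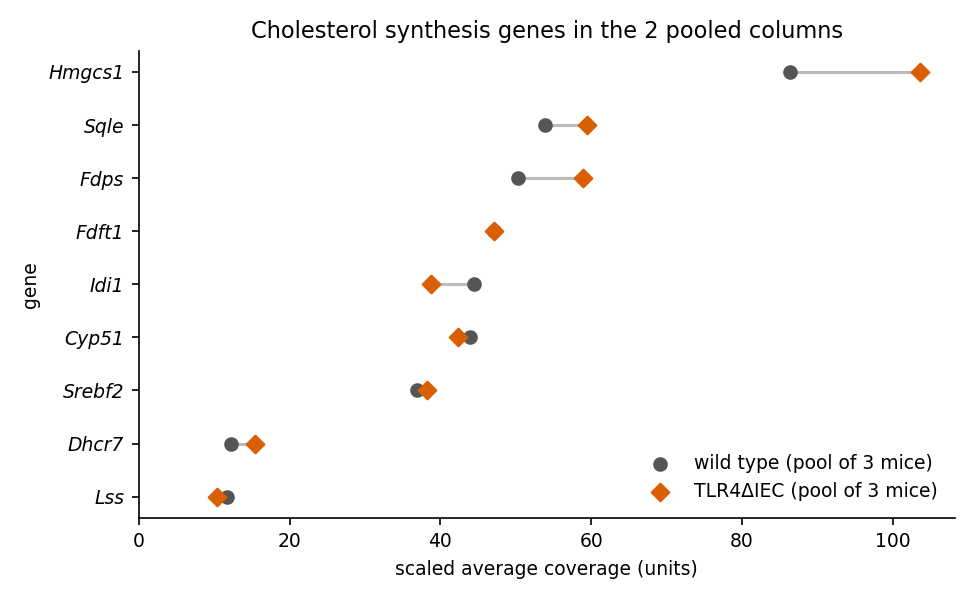
Scaled average coverage in units (x axis) of the 9 genes (y axis) in the wild type pool (circles) and the TLR4ΔIEC pool (diamonds), 1 value per pool of 3 mice and no error bars. Hmgcs1 was highest in both pools and Lss lowest. The distance between the pools was small beside that between Hmgcs1 and Lss, but not beside that between close neighbours such as Idi1 and Cyp51.

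The first steps make mevalonate. Hmgcs1 (chromosome 13, 119690379 to 119708260, plus strand, GRCm38), the cytosolic HMG-CoA synthase, joins acetyl-CoA and acetoacetyl-CoA. Its deposited coverage was 59.0 in wild type and 74.1 in TLR4ΔIEC, or 86.4 and 103.6 units, a log2 ratio of 0.26. It was the highest of the 9 genes in both pools and stood above 89.3% of all genes kept. Its exons overlap an antisense model, Gm48342, over 462 bases.

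Idi1 and Fdps act between mevalonate and farnesyl diphosphate. Idi1 (chromosome 13, 8885501 to 8892451, plus strand) turns isopentenyl diphosphate into its reactive isomer, and had an average coverage of 30.3 (wild type) and 27.7 (TLR4ΔIEC), or 44.4 and 38.8 units, the lowest log2 ratio of the 9 at -0.19. Fdps (chromosome 3, 89093588 to 89101959, minus strand) builds farnesyl diphosphate and is the enzyme that nitrogen-containing bisphosphonate drugs inhibit. Its coverage was 34.4 and 42.2, or 50.3 units in the wild type pool against 58.9 in the TLR4ΔIEC pool, a log2 ratio of 0.22. The neighbouring enzymes of this stretch thus had ratios of opposite sign.

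Both genes have copies elsewhere in the genome that could take or lend reads, so their values are uncertain. Fdps had 6 annotated processed pseudogenes with 88.8% to 98.9% identity over 605 to 1082 bases, and shares 929 bases with the overlapping model Gm43738 on the same strand. Idi1 had 5 processed pseudogenes with 87.0% to 100% identity over 679 to 684 bases, the identical one being Gm13502. None of these pseudogenes had a value in both deposited columns, and how reads matching several places were treated is not given in the sources used here.

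Fdft1, Sqle and Lss lead from farnesyl diphosphate to lanosterol. Fdft1 (chromosome 14, 63145150 to 63179578, minus strand), squalene synthase, catalyses the first step that leads only to sterols, and had nearly equal values of 47.1 units in the wild type pool against 47.2 in the TLR4ΔIEC pool (coverage 32.1 and 33.8), a log2 ratio of 0.00. Sqle (chromosome 15, 59315077 to 59331192, plus strand), squalene epoxidase, is a rate-limiting oxygen-dependent step, and had 53.9 and 59.5 units (coverage 36.8 and 42.6), a log2 ratio of 0.14. Lss (chromosome 10, 76531588 to 76557138, plus strand), which closes the rings to give lanosterol, was the lowest of the 9 genes in both pools, at 11.7 units in the wild type pool against 10.4 in the TLR4ΔIEC pool (coverage 8.01 and 7.41), a log2 ratio of -0.16.

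The end of Fdft1 overlaps that of the protease gene Ctsb on the opposite strand over 774 bases, or 20.9% of the Fdft1 transcript. Ctsb, named because of this overlap, had 83.4 units in the wild type pool against 111 in the TLR4ΔIEC pool (log2 ratio 0.41). Whether counting used strand is not given in the sources used here, so any reads of the overlap cannot be assigned to either gene. Fdft1 also has a processed pseudogene, Gm6781, with 97.4% identity over 1249 bases. The annotated span of Cyp51 overlaps that of Akap9 on the opposite strand (16.4 units in the wild type pool, 15.8 in the other). Unlike for Fdft1 and Ctsb, no stretch of at least 200 bases shared by their transcripts was found. Idi1 and Lss are overlapped by models on the opposite strand, and Srebf2 by an unnamed model and the microRNA gene Mir33 on its own strand. A deposited average is a whole number divided by a number of bases, and that length can be recovered from its decimals, at least as a divisor. For Fdft1 the recovered length was 2863 bases, while the overlap with Ctsb was found on an annotated transcript of 3698 bases. Whether the deposited Fdft1 entry holds the overlap is thus not known. The lengths behind the averages of Lss could not be shown to match between the pools, which adds to the uncertainty of its ratio. Divisors of a single length can fail to match, so a difference in length was not established. Of all genes kept, 69.2% had matching lengths.

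Cyp51 and Dhcr7 act after lanosterol. Cyp51 (chromosome 5, 4081145 to 4104746, minus strand), the lanosterol demethylase that is the mammalian counterpart of the target of azole antifungals, had 44.0 units in the wild type pool against 42.3 in the TLR4ΔIEC pool (coverage 30.0 and 30.3), a log2 ratio of -0.05. Its sign depended on the scaling: it was 0.01 with scaling to the total and 0.05 with scaling to a total that leaves out the 50 highest genes. Dhcr7 (chromosome 7, 143823145 to 143848410, plus strand), which makes cholesterol from 7-dehydrocholesterol and is mutated in Smith-Lemli-Opitz syndrome, had 12.3 units in the wild type pool against 15.4 in the TLR4ΔIEC pool (coverage 8.39 and 11.03). Its log2 ratio of 0.30 was the highest of the 9, and it rested on the smallest amount of sequence, 23.6 and 31.0 kilobases of reads when coverage is multiplied by the GENCODE transcript length.

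Srebf2 (chromosome 15, 82147181 to 82205379, plus strand), the regulator of the enzymes above, had 36.8 units in the wild type pool against 38.3 in the TLR4ΔIEC pool (coverage 25.2 and 27.4), a log2 ratio of 0.05. It lay above 53.1% of all genes in ratio and thus near the middle. SREBP2 is controlled mainly by cutting of the membrane-bound protein, which these data do not measure. Its sequence upstream of the start site carried one of the stricter element cores shown above.

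The order of levels changed little between the pools. From highest to lowest it was Hmgcs1, Sqle, Fdps and Fdft1 in both, then Idi1 and Cyp51 in wild type and Cyp51 and Idi1 in TLR4ΔIEC, then Srebf2, Dhcr7 and Lss in both. Average coverage is per base, so levels can be set beside each other, but with no spread between mice it is not known which neighbours in the order differ. Idi1 and Cyp51 (44.4 and 44.0 units in wild type) were nearly equal. The transcripts have 5 exons (Idi1) to 22 exons (Lss), and their GC content runs from 41.9% (Idi1) to 57.9% (Srebf2).

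**Figure D2:**
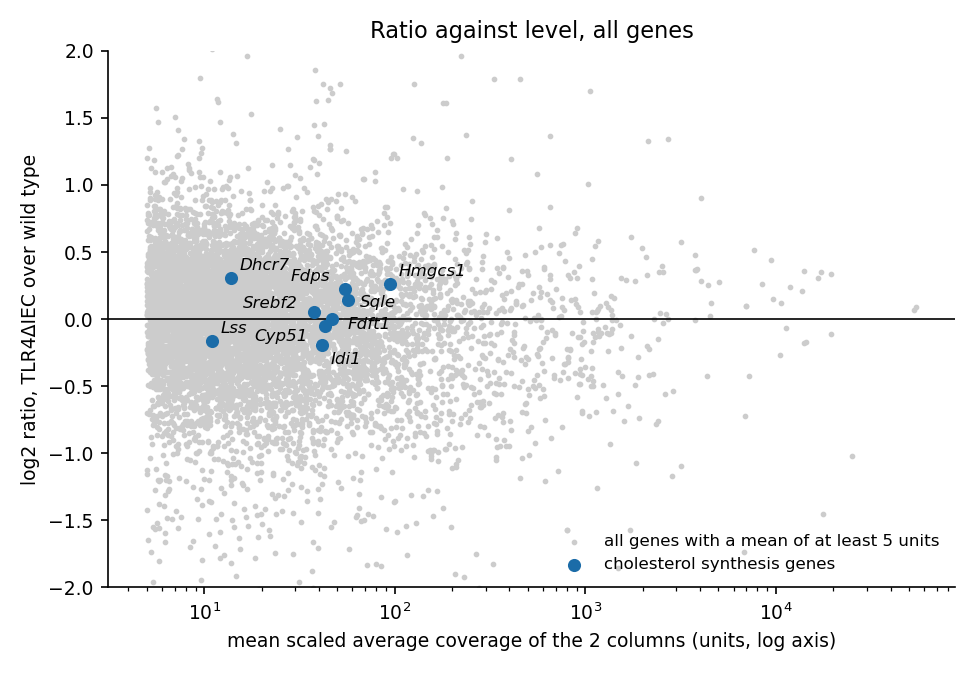
Log2 ratio of TLR4ΔIEC over wild type (y axis) against the mean scaled average coverage of both pools in units (x axis, log scale) for 8888 genes in grey and the 9 cholesterol synthesis genes in blue, 33 genes lying beyond the axis limits of -2 and 2. The blue points lie between -0.19 and 0.30, inside the cloud of genes of similar level.

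The rest of the pathway had wider ratios. Of the 14 other enzyme genes looked for, 13 passed the filter: 6 had a ratio above 0 and 7 below, with a median of -0.19 against 0.03 for all genes. The exception was Idi2, a relative of Idi1, which was barely covered in both pools (0.04 units each). At least 1.5-fold higher was 1 of the 13, Lbr, and at least 1.5-fold lower was 1, Tm7sf2. Together these counts are again near the background of 6.57% and 10.2%.

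Acat2, which makes the acetoacetyl-CoA used by Hmgcs1, was at 0.27, beside 0.26 for Hmgcs1 itself. Of the 5 genes from mevalonate to farnesyl diphosphate, 2 were above 0 and 3 below, with the phosphomevalonate kinase gene Pmvk lowest at -0.49. The grouping by stretch was made with the values known and is a description.

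In the stretch from lanosterol to cholesterol, 10 genes had ratios from -0.80 to 0.74, with a median of -0.13 and 4 above 0. Tm7sf2 and Lbr both encode sterol reductases that act on the same double bond, and they stood at the opposite ends: Tm7sf2 had 27.8 units in the wild type pool against 15.5 in the TLR4ΔIEC pool (-0.80), and Lbr had 23.5 and 40.0 units (0.74). Lbr is also the lamin B receptor of the inner nuclear membrane. Tm7sf2 was the higher of the pair in wild type and Lbr the higher in TLR4ΔIEC. As for Lss, the lengths behind the averages of Lbr and Sc5d could not be shown to match between the pools. This adds to the uncertainty of their ratios. The same limit holds for Olfm4, Fabp6, Pdss1, Zmpste24, Coq2, Abca1 and Mttp, which are named further on. Sc5d, the sterol desaturase just before Dhcr7, was at -0.55. Dhcr7 had a ratio of opposite sign. Summed over all 22 enzyme genes, the pathway had 800 units in the wild type pool against 779 in the TLR4ΔIEC pool, a log2 ratio of -0.04.

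**Figure D3:**
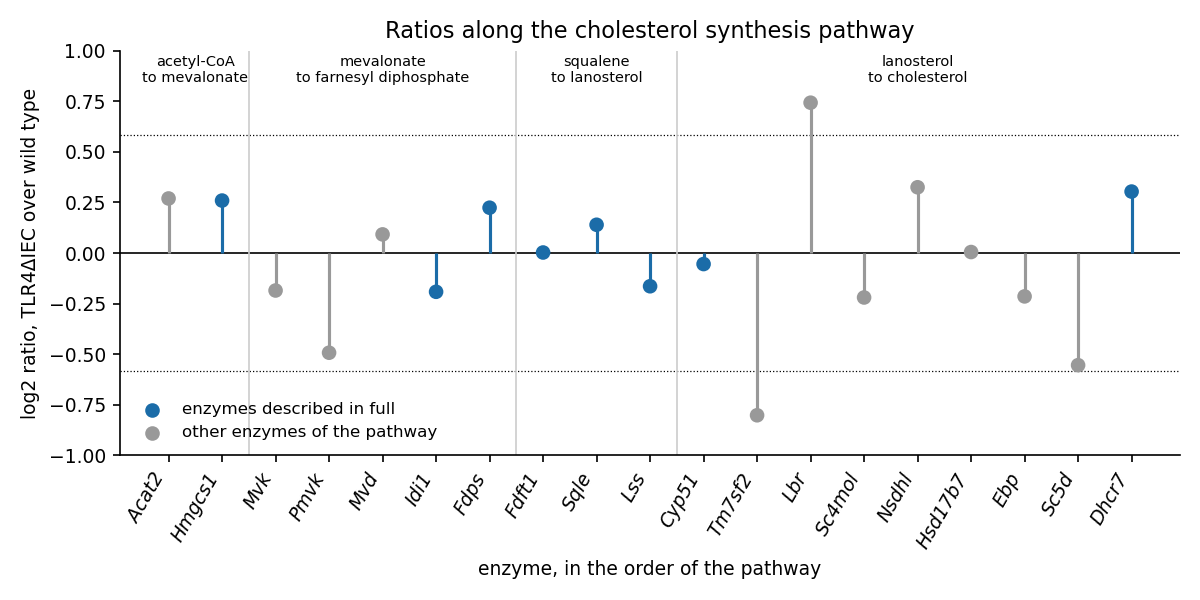
Log2 ratio of TLR4ΔIEC over wild type (y axis) for 19 of the 21 enzymes that passed the filter, in the order of the pathway (x axis), the 8 enzymes described in full in blue and the others in grey, with dotted lines at 1.5-fold. Tm7sf2 (-0.80) and Lbr (0.74) alone pass a dotted line.

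The genes that sense sterol and release SREBP2 were split. SCAP escorts SREBP2 from the endoplasmic reticulum, INSIG proteins hold both back when sterol is plentiful, and site proteases cut SREBP2 in the Golgi. Of 11 such genes, counting genes for the breakdown of INSIG proteins and the oxysterol receptors, 10 passed the filter, 5 with a ratio above 0 and 5 below, and their median was 0.01 (-0.44 when only genes of at least 20 units were kept). Insig2 had 45.2 units in the wild type pool against 26.0 in the TLR4ΔIEC pool (-0.77), whereas Insig1, itself a target of SREBP2, had 27.4 and 33.8 units (0.29). The oxysterol receptors Nr1h3 (LXRα, -0.75) and Nr1h2 (LXRβ, -0.62) were, with Insig2, the 3 genes at least 1.5-fold lower, and 0 were 1.5-fold higher, against 10.2% of all genes lower and 6.57% higher, while 52.7% of all genes were above 0. With 10 genes and pooled values, nothing particular to the list can be read from these counts. Scap was at 0.42, Mbtps1 (site-1 protease) at -0.09 and Srebf1, which encodes the relative of SREBP2 that drives fatty acid synthesis, at 0.11.

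Other genes known to be driven by SREBP2 did not share a direction. Of 8 looked for, 7 passed the filter, with 2 above 0, 5 below and a median of -0.11 (-0.36 among genes with the same recovered length behind both averages), and 0 were 1.5-fold higher or lower. Over all genes, 52.7% were above 0, 6.57% were 1.5-fold higher and 10.2% lower, so a count of 0 of 7 is near the background. Stard4, a carrier of cholesterol inside cells, had 45.5 and 55.0 units (0.27). Npc1l1, the intestinal cholesterol importer, was at -0.58. The uptake and trafficking genes thus had ratios of either sign.

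Markers of cell types had wider ratios than the 9 genes. In a whole tissue, fewer cells of a type and less RNA per cell cannot be told apart. Of 12 genes of dividing cells, 11 were above 0 and 8 at least 1.5-fold higher in TLR4ΔIEC, with summed levels of 225 units in the wild type pool against 326 in the TLR4ΔIEC pool. Of 7 crypt stem cell genes, 5 passed the filter, 4 of them above 0 and 2 at least 1.5-fold higher. The list summed to 215 and 340 units, of which Olfm4 made up 133 and 224. Axin2 (-0.05) was near 0, as was Lgr5 (0.02), which did not pass the filter. Of 9 villus enterocyte genes, 8 passed, all 8 below 0 and 6 at least 1.5-fold lower. That list summed to 17075 and 6649 units, of which Apoa1 made up 10533 and 3154, while Sis (-0.07) and Anpep (-0.13) were near 0. Over all genes, 52.7% were above 0, and those past 1.5-fold were 6.57% (higher) and 10.2% (lower). No gene of these lists was missing from either column. The part of these markers in the values of the cholesterol genes was not tested.

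Lists for other cells of the tissue ranged from nearly equal sums to wide gaps. Sums were 416 units in the wild type pool against 1022 in the TLR4ΔIEC pool for 6 plasma cell genes, 105 and 276 for 7 genes of T cells and intraepithelial lymphocytes, 903 and 1678 for 7 macrophage genes, 735 and 845 for 6 smooth muscle genes, 16718 and 17057 for 7 goblet and Paneth cell genes, and 65.3 and 20.9 for 6 adipocyte genes. A single gene made up much of several sums: Igj had 202 units in the wild type pool against 702 in the TLR4ΔIEC pool, Gzma of the T cell list had 57.6 and 196, and Lyz2 of the macrophage list had 690 and 1389. In the goblet and Paneth cell list, Lyz1 of Paneth cells had 9116 and 10118. That list joined ratios of either sign, 4 of 7 above 0, with Tff3 of goblet cells at -0.76 and Ang4 of Paneth cells at 0.35. All 6 plasma cell genes and all 6 T cell genes that passed the filter were above 0, as were 4 of 5 macrophage and all 6 smooth muscle genes, while all 4 adipocyte genes that passed were below. By comparison, 52.7% of all genes were above 0. Genes of hepatocytes, another main site of cholesterol synthesis, summed to 7.47 and 12.2 units over 6 genes, none of which passed the filter. Markers of ileum were present, led by the bile acid binding protein Fabp6 (15333 units in the wild type pool against 13619 in the TLR4ΔIEC pool), and 7 of 8 were below 0. The part of these cell types in the cholesterol gene values was not tested.

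**Figure D4:**
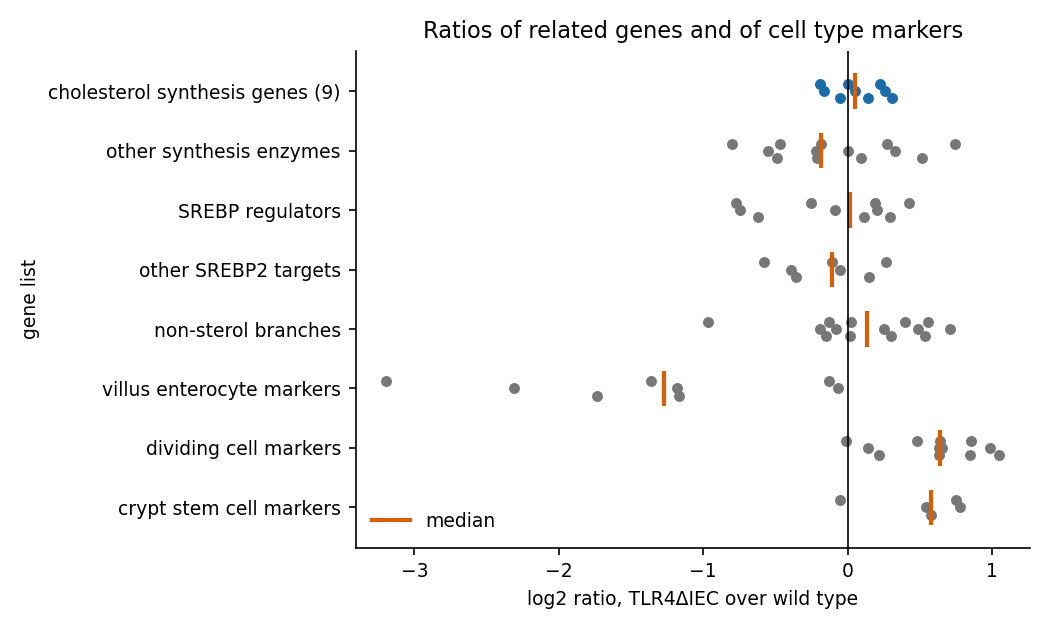
Log2 ratios of TLR4ΔIEC over wild type (x axis) for the genes of 8 lists (y axis) that passed the filter, each point a gene and each bar the median. The 9 cholesterol synthesis genes lie within -0.19 to 0.30, while villus enterocyte markers reach -3.20 and dividing cell markers 1.05.

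The scaling changed how the genes past 1.5-fold were split. Of genes at least 1.5-fold different, 39.3% were higher in TLR4ΔIEC, a share of 51.7% with scaling to the total and of 57.8% with scaling to a total that leaves out the 50 highest genes. At 2-fold the share was 31.7%, and 41.4% and 45.2% under those scalings. In all of the 11 other settings tried, 0 members that passed the filter reached 1.5-fold, and the ratios ran from -0.19 to 0.40. Hmgcs1, Dhcr7, Fdps, Sqle, Srebf2 and Fdft1 stayed above 0 and Idi1 and Lss below in each setting that kept them. Only Cyp51 changed sign. Much of this was fixed in advance. The filters, averaging of entries and the length restriction leave a member's own ratio unchanged, and a pseudocount cannot turn its sign. The other scalings by a single factor (0.97 to 1.04, against 1.05 as reported) move ratios upward only. For the members above 0, only quantile normalization could thus have turned a sign. The ends of the order exchanged in places: under quantile normalization Hmgcs1 (0.39) was above Dhcr7 (0.30) and Lss (-0.18) below Idi1 (-0.15), and with a pseudocount of 5 Hmgcs1 (0.25) was above Dhcr7 (0.24).

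**Figure D5:**
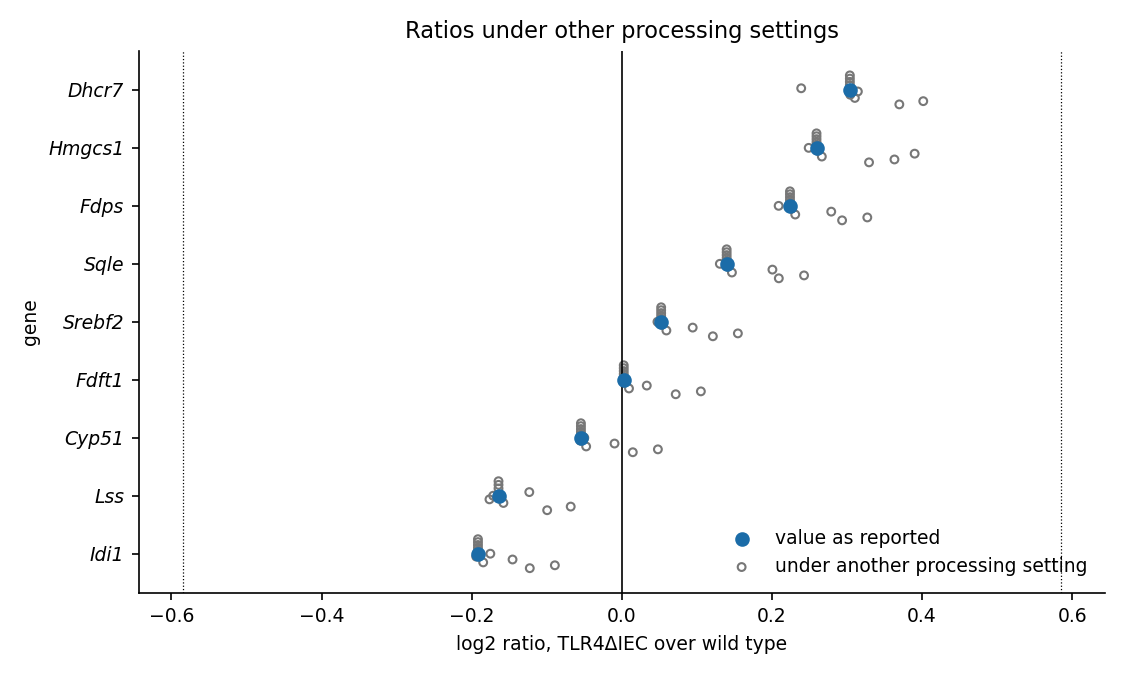
Log2 ratio of TLR4ΔIEC over wild type (x axis) of each of the 9 genes (y axis), with the reported value filled and the values under other scalings, pseudocounts and filters open, and dotted lines at 1.5-fold. No point passes a dotted line, and Cyp51 alone has points on both sides of 0.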

How the data were processed

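Ileal RNA of 3 mice per genotype was sequenced on an Ion Torrent platform, per the labels' protocols. The submitters' processing notes name TopHat2 2.0.10, Bowtie2 2.1.0 and build mm10 without roles. The deposited values are average coverage per RefSeq transcript entry, per the file headers, not scaled to library size, with 1 column per genotype that the labels give to all 3 mice. Entries in 1 column only (723 and 686, none of them a member) were left out. Sums of coverage were 699800 (wild type) and 698473 (TLR4ΔIEC). The read length is not given in the sources used here, so no counting intervals can be given.

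Entries in both columns (22001) were scaled by the median of ratios (factor 1.05) to a mean total of 1000000 units, a repeated symbol was represented by its highest entry, and genes were kept if their mean reached 5 units. Log2 ratios used a pseudocount of 1, which understates those of weakly covered genes. No test was possible with pooled columns, so ratios are described as planned for that case. Steps were tested on simulated data, in which a scaling factor of 1.5 put in was recovered as 1.50 over 8853 genes. Locations and exons follow GENCODE vM21, on GRCm38, which mm10 is built from. Similar transcripts were sought there with blastn 2.17.0 (at least 200 bases and 85% identity), which can take only annotated copies. All 9 members and every gene of the lists could be named, with up to 3 genes for a marker list. A few list members are counted but not reported by name. Members and lists were chosen with earlier results of these data known. The settings varied, one at a time, were the scaling (4 others), the pseudocount (2 others), the filter (3 others), averaging of repeated entries and restriction to genes of the same recovered length. Python 3.11.15, numpy 2.4.6, pandas 2.3.3 and matplotlib 3.10.9 were used.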

Additional observations from a re-analysis of the deposited data

How the results depend on the processing

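Of 195 values recomputed, 161 kept within 0.1 log2 units or, for counts, within 1.5 times of the reported one, a tolerance that had to be set without replicates. Part of the 161 could not have moved. The filters, averaging of entries and the length restriction do not change the ratio of a single member. With scaling to a total that leaves out the 50 highest genes, log2 ratios were 0.36 for Hmgcs1, 0.24 for Sqle, 0.11 for Fdft1, 0.33 for Fdps, -0.089 for Idi1, 0.048 for Cyp51 and 0.15 for Srebf2, the median of the 9 was 0.15, and 905 genes were at least 1.5-fold higher; the median of all genes was then 0.12. Quantile normalization put Hmgcs1 at 0.39. The SREBP regulators had a median of 0.11 when the filter was lowered to 1 unit or dropped, and -0.44 with a filter at 20 units, where the non-sterol branches were at -0.13. Among genes of the same recovered length, the other SREBP2 targets had a median of -0.36 and the non-sterol branches of 0.019.

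Genes at least 1.5-fold higher and lower numbered 584 and 903 as reported, and 284 were higher with a pseudocount of 5, 1000 with a filter at 1 unit, 229 and 489 with a filter at 20 units, 1140 and 1515 with none, and 357 and 583 for the same recovered length. At 2-fold they numbered 115 and 248, and 65 and 146, 206 and 380, 58 and 130, 222 and 395, and 62 and 148 in the same order. Fewer or more genes kept make up the change with filters and lengths, and a higher pseudocount shrinks ratios by construction. Elsewhere the cause was not tested. The filter at 20 units drops Lss and Dhcr7, and the restriction to the same length drops Lss. Leaving out a mouse was not run because the columns are pools, which is the main limit on every value. No paired analysis was possible because each genotype is 1 pooled column.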

Other observations

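Enzymes that take isoprenoids out of the mevalonate pathway before squalene had ratios of both signs. Of 14 measured genes, 9 had a log2 ratio above 0 and 5 below, where 52.7% of all genes were above 0. Their median was 0.14 against 0.03 for all genes, but -0.13 when only genes of at least 20 units were kept and 0.019 among genes of the same recovered length. In each direction 1 gene was past 1.5-fold, near the 6.57% of all genes higher and 10.2% lower. Summed, the list went the other way, with 405 units in the wild type pool against 306 in the TLR4ΔIEC pool (-0.41). This fall was smaller than that of Fnta alone (242 and 124 units), so the direction of the sum rests on a single gene. Pdss2 (0.71) and Pdss1 (0.56), which make the side chain of ubiquinone, and Dhdds (0.54) and Nus1 (0.40), which make dolichol for protein glycosylation, were the higher ones with Zmpste24 (0.49), a protease that trims prenylated proteins. Fnta, the subunit shared by the enzymes that attach farnesyl and geranylgeranyl groups to proteins, was highest in level and lowest in ratio, at 242 units in the wild type pool against 124 in the TLR4ΔIEC pool (-0.96). These genes were weakly covered apart from Fnta and Coq2, most of them at 5 to 24 units.

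Genes of sterol export and esterification were also split. Abcg8 and Abcg5, the paired exporter of sterols into the gut lumen, had ratios of -0.91 and -0.54, while Abca1, which passes cholesterol to lipoproteins, was weakly covered and at 0.41. Soat2, the intestinal enzyme that esterifies cholesterol for chylomicrons, had 23.2 units in the wild type pool against 21.5 in the TLR4ΔIEC pool (-0.10), and Mttp, which loads lipid onto apolipoprotein B, had 125 and 165 units (0.40).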
